A study of Mus musculus with 48 samples.

Results

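Collagens are the main load-bearing proteins of the extracellular matrix that surrounds muscle fibres. The genes examined here encode collagen chains, enzymes and a chaperone that modify or cross-link them, matrix metalloproteinases that cut them, the tissue inhibitors of those proteinases, and the ADAMTS and ADAMTS-like families. Members were all genes of the count table whose symbol carried a Col, Lox, Loxl, P4ha, Plod, Serpinh1, Mmp, Timp, Adamts or Adamtsl name. The rule found 72 genes among 14125. They comprised 32 collagen chains (10 fibrillar, 6 of basement membrane, 4 of type VI and 12 others), 11 modifying genes, 9 Mmp, 4 Timp, 10 Adamts and 5 Adamtsl genes, and Col4a3bp. Col4a3bp matches by name only, since it encodes the ceramide transfer protein.

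Collagen chains are assembled into triple helices in the endoplasmic reticulum, where prolyl 4-hydroxylases (P4ha genes) and lysyl hydroxylases (Plod genes) modify them and the chaperone encoded by Serpinh1 binds the folded helix. After secretion, lysyl oxidases cross-link the fibrils. Metalloproteinases degrade collagen and TIMP proteins inhibit them. In skeletal muscle, fibroblasts and fibro-adipogenic progenitors are a known source of fibrillar collagen, while type IV and type VI collagens lie next to the fibres.

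The RNA came from mixed gastrocnemius, a calf muscle, of male C57BL6J mice, and 3′ ends of transcripts were counted in 48 libraries. Cort_ATGLi mice (n = 14) received corticosterone, the main glucocorticoid of mice, at 100 ug/ml in drinking water for 2 weeks, together with atglistatin at 571 mg/kg in food. Cort_CON mice (n = 14) received the same corticosterone with food that lacked the inhibitor. EtOH_ATGLi mice (n = 10) drank the 1% ethanol vehicle and ate the atglistatin food, and EtOH_CON mice (n = 10) drank the vehicle and ate the food without it. Atglistatin inhibits adipose triglyceride lipase (gene Pnpla2), which removes the first fatty acid from stored triglyceride. In Cort_CON, 9 mice were labelled diabetic and 5 nondiabetic, and all mice of the other groups were labelled nondiabetic. The labels leave unrecorded whether ethanol was also in the corticosterone water. Glucose and insulin are listed for each library separately, so a library was treated as 1 mouse, although the labels do not state separate animals. The p-values therefore measure the spread between these libraries.

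Libraries held 10453888 to 24034481 counts, so that 1 CPM (a count relative to library size, here scaled by trimmed mean of M-values factors, TMM) stood for 10.45 counts in the shallowest library and 24.03 in the deepest before scaling. Nearly all deposited counts were even numbers, so a count may not stand for 1 read. All 13 listed muscle fibre markers were detected, with a summed level of 82851 to 163050 CPM across the 48 libraries. Fkbp5, a glucocorticoid receptor target, had 184 to 361 CPM (median 273) in Cort_ATGLi and 227 to 456 CPM (median 326) in Cort_CON, against 29.2 to 77.3 CPM (median 49.1) in EtOH_ATGLi and 18.8 to 37.9 CPM (median 27.3) in EtOH_CON. Its levels therefore separated every corticosterone library from every vehicle library. Replicate 41 of Cort_ATGLi and replicate 1 of EtOH_CON correlated least with their own groups (mean r across genes 0.954 and 0.953), and called values that moved by over 1.5 times or lost their call without either are also given without it. Of the 72 members, 63 had enough counts to be tested among 12592 genes. The untested members were Adamts20, Timp1, Col24a1, Col20a1, Col4a5, Mmp17, Adamts7, Loxl4 and Adamts4. Because 3′ counts are not divided by length, levels are compared between groups and not between genes. A change in bulk RNA cannot tell fewer cells of a type from less RNA per cell.

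Promoter sequence is shown for 2 genes among those with the largest falls under corticosterone and 2 of those that rose, so that the letters before their start sites can be compared. Each run is the 150 bases before a RefSeq start (GRCm38.p6), written along the gene's strand. For Col1a2 that RefSeq start lies inside the GENCODE gene span, which begins at 4504814, so its window is not upstream of the annotated gene. The other windows shown end where the GENCODE gene begins. Capitals mark matches, on either strand, to the CCAAT box, to the TATA-like TATAAA, to the GC-box core GGGCGG or to AGAACA, the letters found in many glucocorticoid receptor sites.
Col1a2, chr6:4505468-4505617, plus strand: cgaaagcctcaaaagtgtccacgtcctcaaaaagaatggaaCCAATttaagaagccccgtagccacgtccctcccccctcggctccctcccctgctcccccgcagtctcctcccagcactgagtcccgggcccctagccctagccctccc
Col3a1, chr1:45311388-45311537, plus strand: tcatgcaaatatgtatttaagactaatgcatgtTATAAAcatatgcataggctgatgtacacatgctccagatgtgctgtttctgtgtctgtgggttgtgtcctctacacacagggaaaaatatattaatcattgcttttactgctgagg
Timp4, chr6:115252206-115252355, minus strand: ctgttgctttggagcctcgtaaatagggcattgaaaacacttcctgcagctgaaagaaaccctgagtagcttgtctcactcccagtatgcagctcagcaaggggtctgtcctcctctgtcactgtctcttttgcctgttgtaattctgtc
Adamtsl4, chr3:95687918-95688067, minus strand: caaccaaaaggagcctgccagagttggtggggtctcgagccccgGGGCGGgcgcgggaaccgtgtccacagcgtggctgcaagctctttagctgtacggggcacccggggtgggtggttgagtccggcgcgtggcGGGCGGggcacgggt
The Col1a2 window held a CCAAT box, the Col3a1 window a TATA-like match and the Adamtsl4 window a pair of GGGCGG matches, while none of the 4 motifs was found in the Timp4 window. Over the 54 windows available for 50 members, CCAAT was present in 16.7% (24.5% of all 32851 windows), TATAAA in 9.26% (7.57%), GGGCGG in 57.4% (28.6%) and AGAACA in 7.41% (9.62%). GGGCGG was present in 20 of 36 windows of members that fell and in 4 of 5 windows of members that rose. In the same order CCAAT was in 8 and 0, TATAAA in 3 and 1, and AGAACA in 3 and 0. A difference by direction was not tested. No 2 of these motifs overlap in the windows shown. These matches describe letters and no factor's binding was measured.

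The first question was how corticosterone changed these genes on food without the inhibitor. In Cort_CON against EtOH_CON, 44 of 63 tested members fell and 7 rose at an adjusted p under 0.05 (edgeR's quasi-likelihood test with Benjamini-Hochberg adjustment over all tested genes). Across all genes 19.5% fell and 18.9% rose. The median log2 fold change of the tested members was -0.88, against -0.0011 for all tested genes. Of 29 tested collagen chains, 24 fell and 0 rose, and their median was -1.30. Cort_CON and EtOH_CON libraries did not overlap for 17 lower members and for 1 higher member, Timp4. The same complete separation was seen in 2.33% of all genes in the lower direction and 2.37% in the higher direction.

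**Figure D1:**
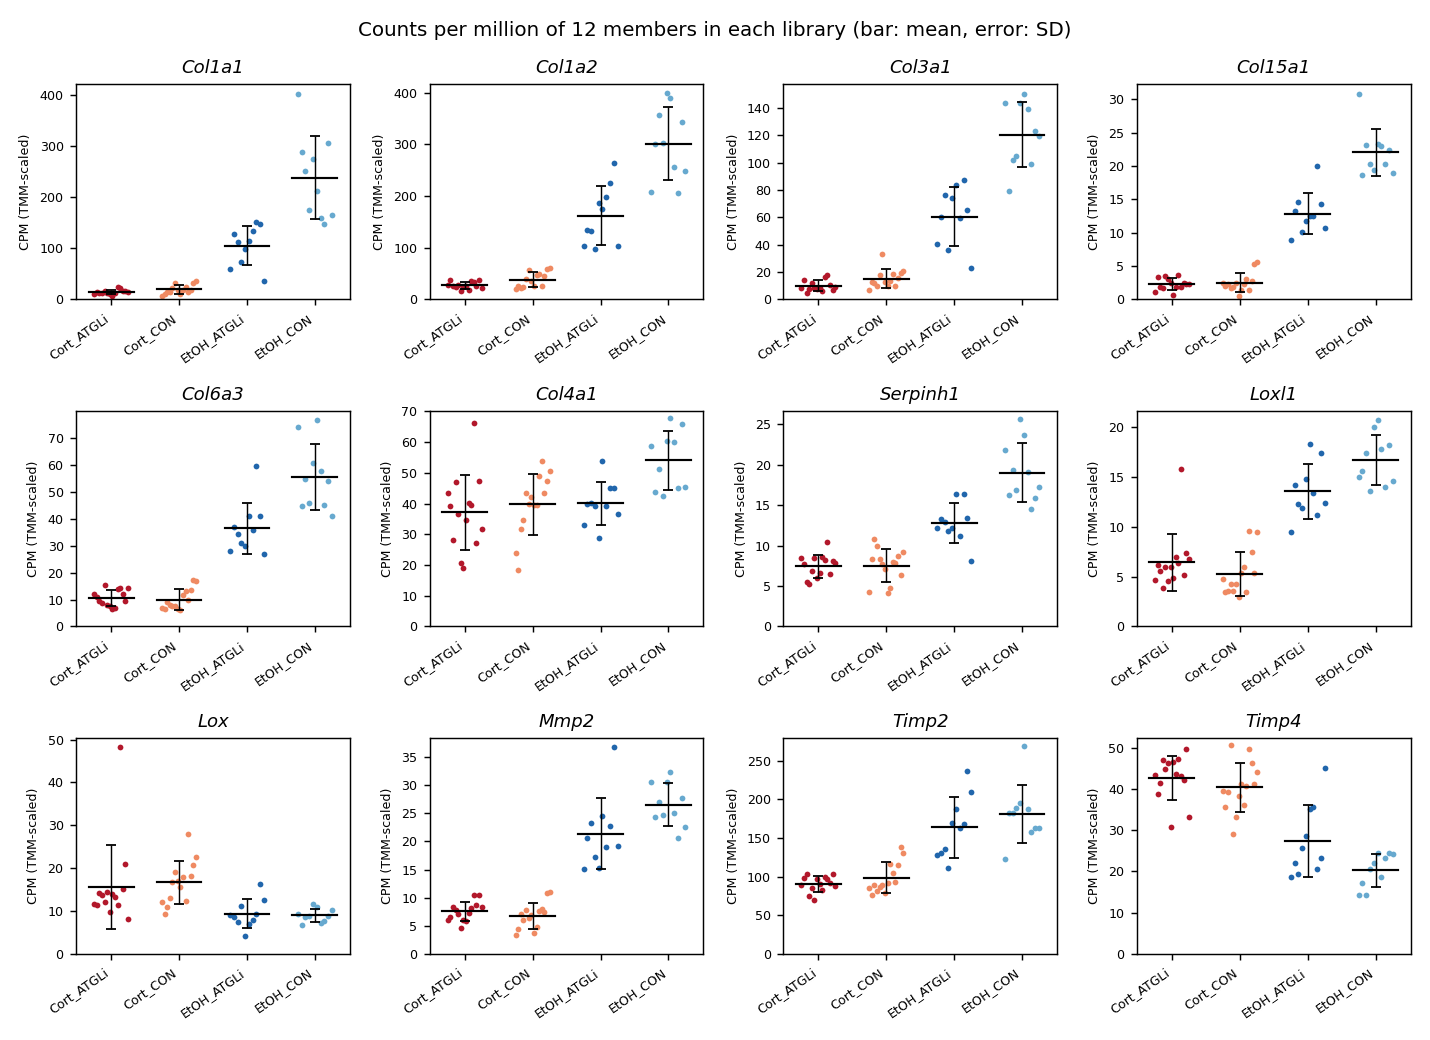
Level of 12 members in every library, in TMM-scaled CPM (linear axes that start at 0), by group. Points are libraries, horizontal bars are group means and error bars are SD; on each diet the corticosterone group (red, orange) lies wholly below its own vehicle group (blue) for Col1a1, Col1a2, Col3a1 and Col15a1, and for Timp4 Cort_CON lies above EtOH_CON.

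Fibrillar collagens form the tension-bearing fibrils, with type I collagen built from the products of Col1a1 and Col1a2 and type III from Col3a1. All 9 tested fibrillar genes fell in Cort_CON, with log2 fold changes of -3.62 to -1.18. Col1a1 (chromosome 11, 94936224 to 94953042, GRCm38) had 6.77 to 35.5 CPM (median 18.5) in Cort_CON, against 148 to 403 CPM (median 232) in EtOH_CON. Its log2 fold change was -3.62 ± 0.24 (SE, adjusted p = 7.40e-17), the largest fall among members with a mean of at least 5 CPM. Col1a2 (chromosome 6, 4504814 to 4541544) had 19.9 to 61.00 CPM (median 36.99) in Cort_CON and 206 to 398 CPM (median 302) in EtOH_CON, a log2 fold change of -2.98 ± 0.19 (adjusted p = 1.84e-17). For both chains the highest corticosterone library lay below the lowest vehicle library. Col3a1 (chromosome 1, 45311538 to 45349706) showed the same separation, with 6.95 to 33.5 CPM (median 13.3) in Cort_CON against 79.1 to 150.5 CPM (median 121) in EtOH_CON and a log2 fold change of -2.99 ± 0.21. The type V genes Col5a1, Col5a2 and Col5a3, whose products co-assemble with type I fibrils, fell by 1.56, 1.55 and 1.18 on the log2 scale and also did not overlap. Col11a1, Col11a2 and Col27a1 fell as well, at levels of a few CPM or less.

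Basement membrane collagens differed widely in the size of their change. Col15a1, whose product lies at the border of basement membranes and the fibrillar matrix, had 0.465 to 5.61 CPM (median 2.30) in Cort_CON against 18.6 to 30.8 CPM (median 21.4) in EtOH_CON, with no overlap and a log2 fold change of -3.13 ± 0.21 (adjusted p = 1.47e-17). The type IV chains that make up the basement membrane network around fibres moved less. Col4a1 had 18.4 to 53.9 CPM (median 40.9) in Cort_CON and 42.5 to 67.7 CPM (median 55.00) in EtOH_CON, overlapping ranges with a log2 fold change of -0.44 ± 0.15 (adjusted p = 0.0154). The call for Col4a1 was lost when the 5 nondiabetic Cort_CON mice stood alone (adjusted p = 0.0941, log2 fold change -0.43). Col4a2 had 15.01 to 34.2 CPM (median 26.2) in Cort_CON and 29.5 to 54.9 CPM (median 36.1) in EtOH_CON, and fell by 0.58 ± 0.13. Both genes start from a shared region of chromosome 8, where their annotated starts at 11312826 and 11312805 overlap by 22 bases on opposite strands. Reads there cannot be assigned without strand, but the libraries read 3′ ends. The annotated 3′ ends, at 11198423 for Col4a1 and 11449287 for Col4a2, lie far from that region. Col18a1 fell by 0.73, a call lost with the nondiabetic Cort_CON mice alone (log2 fold change -0.42, adjusted p = 0.277), and Col4a4 did not pass the test (-0.46, adjusted p = 0.0605). The 4 type VI genes, which encode chains of the beaded filaments next to the fibre surface, all fell. Col6a3 had 6.02 to 17.1 CPM (median 8.61) in Cort_CON against 40.98 to 76.4 CPM (median 54.4) in EtOH_CON (-2.46 ± 0.17), with no overlap. Col6a1 and Col6a2 also separated completely, at -2.03 ± 0.14 and -2.10 ± 0.15, and Col6a6 fell by 1.30.

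Among the other collagens, 7 of 11 tested genes fell: Col8a1, Col8a2, Col9a1, Col12a1, Col13a1, Col14a1 and Col16a1. The call for Col13a1 (adjusted p = 0.0357) was lost without any of EtOH_CON replicates 1 (log2 fold change -0.71, adjusted p = 0.0568), 3, 9, 10 and 12 or Cort_CON replicates 27 and 45, and with the nondiabetic Cort_CON mice alone (log2 fold change -0.37, adjusted p = 0.522, against -0.75 with all mice). Col14a1, which encodes a fibril-associated collagen, had 0.256 to 2.40 CPM (median 1.00) in Cort_CON against 4.05 to 8.49 CPM (median 5.81) in EtOH_CON, without overlap (-2.36 ± 0.23, adjusted p = 1.03e-12). Col16a1, another fibril-associated collagen, had 0.549 to 3.83 CPM (median 2.39) in Cort_CON and 3.03 to 9.48 CPM (median 5.75) in EtOH_CON (-1.29 ± 0.19). Col22a1, known at tissue junctions such as that of muscle and tendon, did not pass the test. It had 2.41 to 12.8 CPM (median 6.79) in Cort_CON and 2.59 to 9.38 CPM (median 8.19) in EtOH_CON (-0.16 ± 0.18, adjusted p = 0.495). Col7a1, which encodes the chain of anchoring fibrils, likewise did not pass (0.18 ± 0.21), nor did Col19a1 and Col23a1.

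Genes that modify collagen moved in both directions. Serpinh1, Loxl1, Loxl2, Loxl3, P4ha1 and Plod1 fell, Lox and P4ha2 rose, and Plod2 and Plod3 did not pass the test. Serpinh1, the collagen chaperone, had 4.10 to 10.8 CPM (median 7.91) in Cort_CON against 14.5 to 25.6 CPM (median 18.2) in EtOH_CON (-1.33 ± 0.12, adjusted p = 3.50e-13). Loxl1 had 2.94 to 9.56 CPM (median 4.52) in Cort_CON against 13.6 to 20.8 CPM (median 16.5) in EtOH_CON (-1.65 ± 0.17), and Loxl2 fell by 2.01. Serpinh1, Loxl1 and Loxl2 had no overlap between the groups. Lox, the lysyl oxidase of the same cross-linking family, went the other way. It had 9.19 to 28.04 CPM (median 16.8) in Cort_CON and 6.63 to 11.7 CPM (median 8.79) in EtOH_CON, with overlapping ranges and a log2 fold change of 0.90 ± 0.22 (adjusted p = 7.88e-04). The catalytic subunits of prolyl 4-hydroxylase also differed in direction. P4ha1 had 8.60 to 15.6 CPM (median 12.6) in Cort_CON and 14.8 to 25.6 CPM (median 18.5) in EtOH_CON (-0.56 ± 0.09), while P4ha2 had 12.3 to 25.02 CPM (median 16.7) in Cort_CON and 12.1 to 15.5 CPM (median 13.5) in EtOH_CON (0.31 ± 0.09). The P4ha2 call was lost with the nondiabetic Cort_CON mice alone (log2 fold change 0.20, adjusted p = 0.208).

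**Figure D2:**
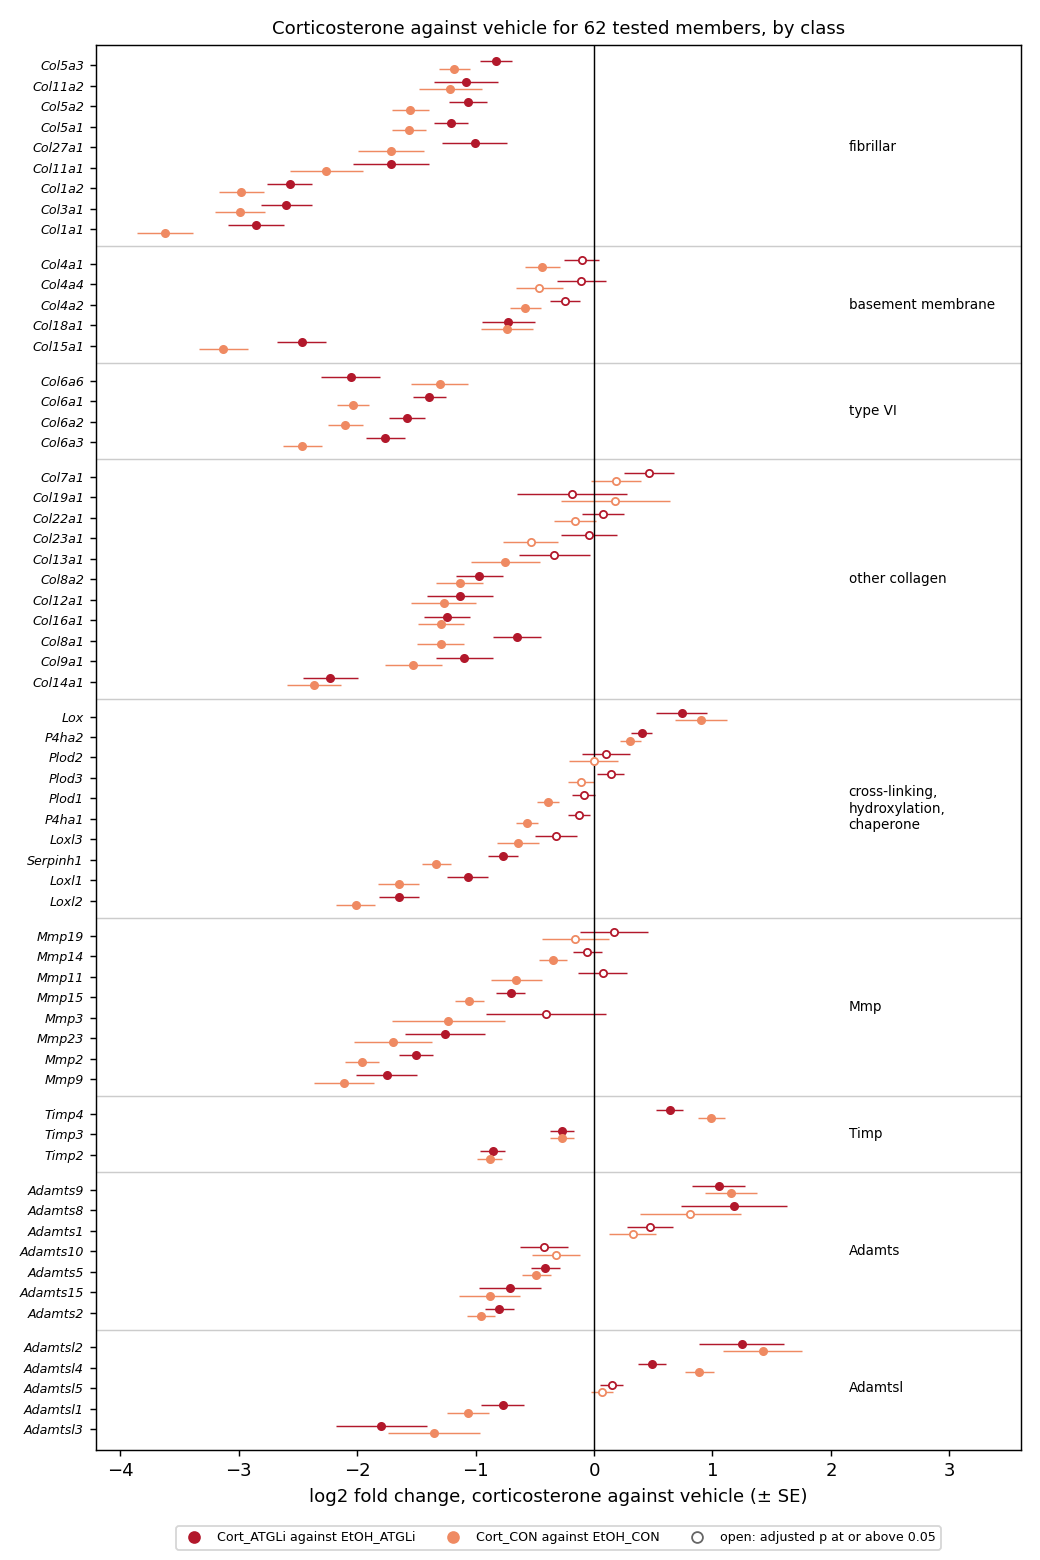
Log2 fold change of corticosterone against vehicle, with SE, for the 62 tested members other than Col4a3bp, grouped by class, on atglistatin food (red) and on food without it (orange). Filled points passed an adjusted p of 0.05; the fibrillar and type VI genes are filled and below 0 on both diets, while Lox, P4ha2, Timp4, Adamts9, Adamtsl2 and Adamtsl4 are filled and above 0 on both.

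Metalloproteinases fell with the collagens. Of 8 tested Mmp genes, Mmp2, Mmp3, Mmp9, Mmp11, Mmp14, Mmp15 and Mmp23 fell and Mmp19 did not pass the test. The call for Mmp3 (adjusted p = 0.0355) was lost without any of EtOH_CON replicates 3, 10 and 16 or Cort_CON replicates 27, 29, 33 and 35, with limma-voom (adjusted p = 0.0846) and with the nondiabetic Cort_CON mice alone (adjusted p = 0.163). Mmp2, which encodes gelatinase A, had 3.29 to 11.04 CPM (median 6.95) in Cort_CON against 20.7 to 32.4 CPM (median 26.03) in EtOH_CON, without overlap (-1.96 ± 0.15, adjusted p = 3.92e-16). Mmp14, a membrane-bound proteinase known to activate the MMP2 proenzyme, had 7.14 to 20.1 CPM (median 13.6) in Cort_CON and 13.6 to 23.8 CPM (median 17.6) in EtOH_CON, an overlapping difference of -0.35 ± 0.12 (adjusted p = 0.0177). Its call was lost without EtOH_CON replicate 1 (log2 fold change -0.29, adjusted p = 0.0521) and with the nondiabetic Cort_CON mice alone (log2 fold change -0.22, adjusted p = 0.314). Mmp15, another membrane-type proteinase, fell by 1.05 ± 0.12 with no overlap, and Mmp9, which encodes gelatinase B, fell by 2.11 at 0.326 to 1.52 CPM (median 0.768) in Cort_CON against 2.25 to 5.03 CPM (median 3.67) in EtOH_CON.

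The inhibitors did not move as a block. Timp2 had 76.4 to 139 CPM (median 90.7) in Cort_CON against 122 to 269.6 CPM (median 183) in EtOH_CON (-0.88 ± 0.11, adjusted p = 7.98e-10). Timp3, which encodes the matrix-bound inhibitor, had 69.8 to 150.5 CPM (median 112) in Cort_CON and 119 to 198 CPM (median 130.4) in EtOH_CON, a small fall (-0.27 ± 0.10, adjusted p = 0.0312). The Timp3 call was lost without EtOH_CON replicate 10, without Cort_CON replicate 27 or 28, and with the nondiabetic Cort_CON mice alone (log2 fold change -0.31, adjusted p = 0.0503). Timp4 was the inhibitor gene that rose, with 29.01 to 50.6 CPM (median 40.2) in Cort_CON against 14.3 to 24.5 CPM (median 21.3) in EtOH_CON and a log2 fold change of 0.99 ± 0.12 (adjusted p = 4.50e-10). Timp4 (chromosome 6, 115241892 to 115252205, minus strand) lies across from the counted gene Syn2, and whether counting used strand is unstated. Only whole gene spans were compared, not exons or 3′ ends, so whether reads of the other gene enter its counts is not known. The same holds for Adamts2, Adamts9, Col18a1, Loxl3, Mmp11, Mmp19 and Plod3, each of which has a counted gene on the opposite strand, and Col5a2 overlaps a counted gene on its own strand.

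ADAMTS genes encode secreted proteinases, among them the aggrecan-cutting enzymes and the procollagen N-proteinase of Adamts2, while ADAMTS-like proteins have no protease domain. In Cort_CON, Adamts2, Adamts5, Adamts15, Adamtsl1 and Adamtsl3 fell and Adamts9, Adamtsl2 and Adamtsl4 rose. The Adamts15 call was lost with the nondiabetic Cort_CON mice alone (log2 fold change -0.80, adjusted p = 0.101). Adamts2 had 3.72 to 7.45 CPM (median 5.72) in Cort_CON against 6.94 to 13.7 CPM (median 11.2) in EtOH_CON (-0.96 ± 0.12). Adamtsl4 had 19.4 to 35.1 CPM (median 23.9) in Cort_CON and 9.63 to 23.6 CPM (median 12.7) in EtOH_CON (0.89 ± 0.12, adjusted p = 3.21e-08), overlapping ranges. Adamts5, which encodes an aggrecanase, fell by 0.49 ± 0.12, and this call was lost with the nondiabetic Cort_CON mice alone (log2 fold change -0.36, adjusted p = 0.119). Adamtsl1 fell by 1.06 ± 0.18. Adamts1, which had 13.2 to 63.1 CPM (median 26.1) in Cort_CON and 15.5 to 27.95 CPM (median 20.1) in EtOH_CON, did not pass the test (0.32 ± 0.20), nor did Adamtsl5 (0.07 ± 0.10), Adamts8 or Adamts10. Col4a3bp, no collagen, rose by 0.31 ± 0.10, a call lost with the nondiabetic Cort_CON mice alone (log2 fold change 0.32, adjusted p = 0.0830).

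The same question was asked between the groups on atglistatin food. The same fit over all 48 libraries gave the spread for both comparisons, so they are not fully separate. In Cort_ATGLi against EtOH_ATGLi, 35 of 63 tested members fell and 7 rose, where 15% of all genes fell and 15% rose. The median log2 fold change was -0.70, against -0.0016 for all genes. The 9 fibrillar and 4 type VI genes all fell again, as did 2 of 5 basement membrane genes, 6 of 11 other collagens, 3 of 10 modifying genes and 4 of 8 Mmp genes. Groups without overlap numbered 16 members in the lower direction and 0 in the higher direction, against 1.61% and 1.84% of all genes.

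Col1a1 had 7.06 to 24.2 CPM (median 14.03) in Cort_ATGLi against 36.6 to 151 CPM (median 113) in EtOH_ATGLi (-2.85 ± 0.23, adjusted p = 1.82e-13). Col1a2 had 16.4 to 37.4 CPM (median 26.2) in Cort_ATGLi against 97.7 to 265 CPM (median 154) in EtOH_ATGLi (-2.57 ± 0.19), and Col3a1 had 4.98 to 18.02 CPM (median 8.24) in Cort_ATGLi against 23.2 to 87.3 CPM (median 62.8) in EtOH_ATGLi (-2.60 ± 0.21). All 3 genes separated the groups completely. Col15a1 had 0.718 to 3.69 CPM (median 2.28) in Cort_ATGLi against 8.91 to 19.96 CPM (median 12.5) in EtOH_ATGLi (-2.47 ± 0.21), and Col6a3 had 6.58 to 15.5 CPM (median 10.3) in Cort_ATGLi against 27.05 to 59.4 CPM (median 35.05) in EtOH_ATGLi (-1.76 ± 0.16). The network chains Col4a1 and Col4a2 did not pass the test here (-0.10 ± 0.15 and -0.24 ± 0.13). Col4a2 passed without Cort_ATGLi replicate 41 and EtOH_CON replicate 1 (log2 fold change -0.32, adjusted p = 0.0293).

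Mmp2 had 4.52 to 10.5 CPM (median 7.58) in Cort_ATGLi against 15.1 to 36.8 CPM (median 19.9) in EtOH_ATGLi (-1.50 ± 0.15), and Timp2 had 69.7 to 103 CPM (median 91.6) in Cort_ATGLi against 110.5 to 237 CPM (median 166) in EtOH_ATGLi (-0.86 ± 0.11). Neither pair of groups overlapped. Timp3 fell by 0.27 ± 0.10, a call lost without any of EtOH_ATGLi replicates 10, 12, 13 and 14 or Cort_ATGLi replicates 24 and 25. Among the genes that rose, Lox had 8.18 to 48.2 CPM (median 13.5) in Cort_ATGLi and 4.06 to 16.2 CPM (median 8.78) in EtOH_ATGLi (0.74 ± 0.22), Timp4 had 30.9 to 49.9 CPM (median 43.5) in Cort_ATGLi and 18.6 to 45.2 CPM (median 24.5) in EtOH_ATGLi (0.64 ± 0.11), and Adamtsl4 rose by 0.49 ± 0.12. Without Cort_ATGLi replicate 41, the library at 48.2 CPM, the Lox value was 0.48 ± 0.16 (adjusted p = 0.0218). P4ha2, Adamts8, Adamts9 and Adamtsl2 also rose. The Adamts8 call (adjusted p = 0.0393) was lost without any 1 of 13 libraries, with limma-voom (adjusted p = 0.239) and with halved counts (adjusted p = 0.0531). The fall of Adamts15 (adjusted p = 0.0311) was lost with limma-voom (adjusted p = 0.0981) and without any of EtOH_ATGLi replicates 5, 7 and 12. Adamts1 did not pass the threshold (0.47 ± 0.20, adjusted p = 0.0633). It passed with DESeq2 (adjusted p = 0.0498), in the fit of these groups alone (adjusted p = 0.0379) and without EtOH_ATGLi replicate 14, Cort_ATGLi replicate 24 or 40, or Cort_CON replicate 45. Without Cort_ATGLi replicate 41 its value was 0.31 ± 0.17 (adjusted p = 0.175).

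All 35 members that fell on atglistatin food were among the 44 that fell on food without it (100% of the 35 and 79.5% of the 44). Of the 7 that rose on each diet, 6 were shared (85.7% of each list). Both comparisons tested the same corticosterone treatment in 1 fit. The sharing of calls among all genes was not counted, so these percents cannot be called particular to the members. The log2 fold change was smaller in size on atglistatin food for 50 of the 63 members (79.4%), and for 61.1% of all tested genes. Most members fell, so genes that fell on food without atglistatin are the closer background. Among those, the size was smaller for 41 of 44 members (93.2%) and for 81.5% of all genes. The test of that difference, the interaction of corticosterone and diet, called 0 members by edgeR, where it called 0.0238% of all genes higher and 0.0159% lower. At an unadjusted p under 0.05, 14 members had a positive interaction, meaning a less negative or more positive corticosterone change on atglistatin food, and 3 a negative one (3.05% and 2.47% of all genes). DESeq2 and limma-voom also called 0 members. Among genes that bind collagen, Sparc, which encodes a collagen-binding matricellular protein, passed the interaction test (log2 difference 0.70 ± 0.13, adjusted p = 0.0121). The corticosterone log2 fold change of Sparc was 0.07 ± 0.09 on atglistatin food and -0.63 ± 0.09 on food without it.

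**Figure D3:**
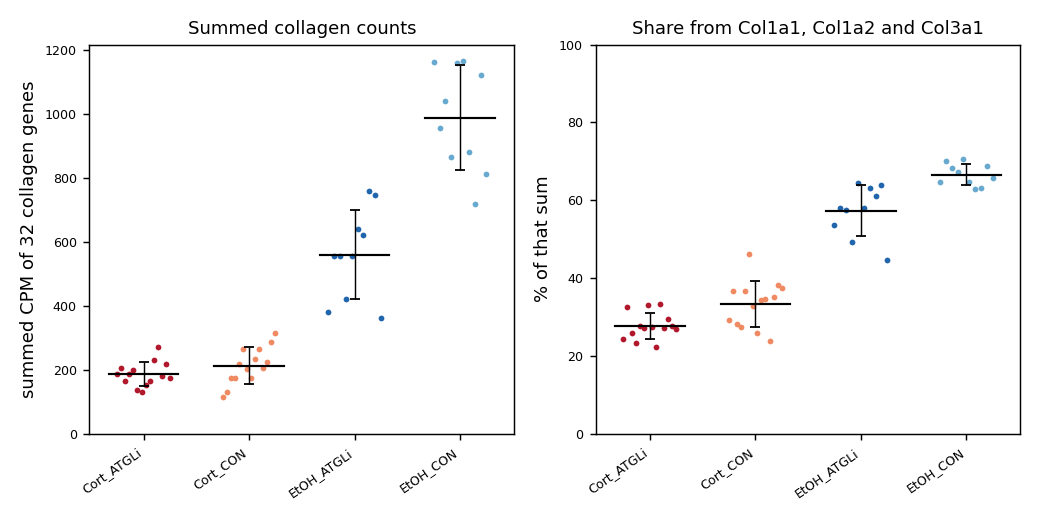
Left, summed TMM-scaled CPM of the 32 collagen chain genes in each library; right, the percent of that sum from Col1a1, Col1a2 and Col3a1. Points are libraries, bars are means and error bars are SD; summed collagen averages 186 CPM in Cort_ATGLi, 212 in Cort_CON, 560 in EtOH_ATGLi and 988 in EtOH_CON.

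Summed over the 32 collagen chain genes, collagen counts averaged 186 ± 37.7 CPM in Cort_ATGLi (SD, n = 14) and 559.6 ± 139.8 CPM in EtOH_ATGLi (n = 10). They averaged 212 ± 57.2 CPM in Cort_CON (n = 14) and 988 ± 164 CPM in EtOH_CON (n = 10). Summed levels ran from 130 to 270.0 CPM in Cort_ATGLi, 115 to 314 CPM in Cort_CON, 363 to 759 CPM in EtOH_ATGLi and 718 to 1164 CPM in EtOH_CON. On each diet no corticosterone library reached the lowest vehicle library. The makeup of the sum differed too: Col1a1, Col1a2 and Col3a1 gave 27.7% ± 3.42 of it in Cort_ATGLi and 57.4% ± 6.50 in EtOH_ATGLi, and 33.3% ± 5.94 in Cort_CON and 66.6% ± 2.78 in EtOH_CON (SD). These shares describe 3′ counts, which depend on how well each transcript end was captured.

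Ratios between members within a library do not depend on library scaling. Type I collagen normally holds α1 and α2 chains in a fixed proportion, so the count ratio of their genes was compared. The log2 ratio of Col1a1 to Col1a2 averaged -1.03 ± 0.29 in Cort_CON and -0.37 ± 0.53 in EtOH_CON (SD). The difference was -0.65 ± 0.19 (SE), with Benjamini-Hochberg adjusted p = 0.00036 over 12 ratio comparisons (two-sided permutation test, 100000 resamples). Every one of the 14 Cort_CON libraries lay below the EtOH_CON mean, although the groups overlapped. It was -0.51 without EtOH_CON replicate 1 (adjusted p = 0.00072), and -0.52 with the nondiabetic Cort_CON mice alone (adjusted p = 0.0533), alternatives that were chosen after seeing the data. On atglistatin food the ratio averaged -0.93 ± 0.41 in Cort_ATGLi and -0.65 ± 0.39 in EtOH_ATGLi, and that difference did not pass (-0.28 ± 0.17, adjusted p = 0.182). Whether the effect differed between diets was not tested for this ratio.

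The log2 ratio of Mmp2 to Timp2, a proteinase and an inhibitor that bind each other, was lower under corticosterone on both diets. It averaged -3.92 ± 0.43 in Cort_CON and -2.76 ± 0.30 in EtOH_CON, without overlap (difference -1.16 ± 0.15, adjusted p = 0.00024 by the permutation test). On atglistatin food it averaged -3.62 ± 0.29 in Cort_ATGLi and -2.95 ± 0.33 in EtOH_ATGLi (difference -0.66 ± 0.13, adjusted p = 0.00056). All 14 corticosterone libraries on each diet lay below the mean of their vehicle group. The ratio of Col4a1 to Col4a2 did not pass in any of its 4 comparisons, with differences between -0.07 and 0.14.

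**Figure D4:**
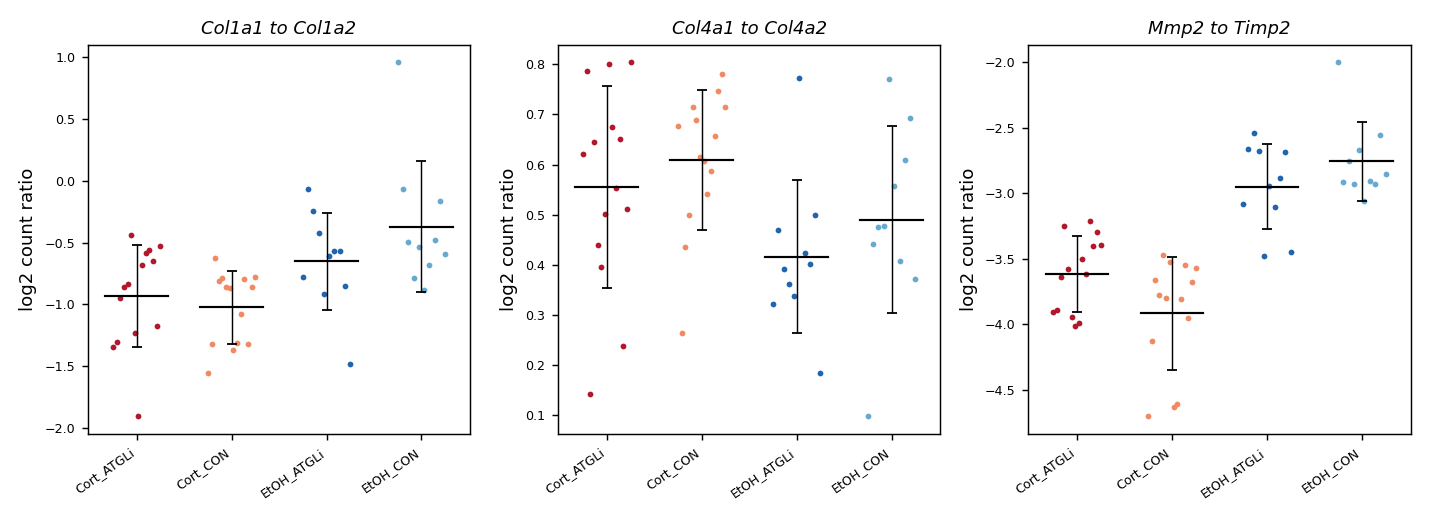
Log2 count ratio within each library for Col1a1 to Col1a2, Col4a1 to Col4a2 and Mmp2 to Timp2, by group. Points are libraries, bars are means and error bars are SD; for Mmp2 to Timp2 the Cort_CON libraries all lie below the EtOH_CON libraries.

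The next question was whether atglistatin alone changed these genes. In EtOH_ATGLi against EtOH_CON, edgeR called 0 members at an adjusted p under 0.05, where it called 0.00794% of all genes lower and 0.0159% higher. At an unadjusted p under 0.05, 23 members were lower and 1, Timp4, was higher (3.38% and 3.28% of all genes). The log2 fold change was below 0 for 54 of 63 members, against 50.9% of all genes, and the members' median was -0.32. These comparisons share the EtOH_CON libraries with Cort_CON against EtOH_CON. The lowest adjusted p was that of Col1a1, which had 36.6 to 151 CPM (median 113) in EtOH_ATGLi and 148 to 403 CPM (median 232) in EtOH_CON (-1.18 ± 0.24, adjusted p = 0.0514). Col1a2 had 97.7 to 265 CPM (median 154) in EtOH_ATGLi and 206 to 398 CPM (median 302) in EtOH_CON (-0.90 ± 0.20, adjusted p = 0.0572). For Col3a1 the log2 fold change was -0.99 ± 0.22, for Col6a2 -0.69 ± 0.16 and for Serpinh1 -0.57 ± 0.13, each with the adjusted p of Col1a2. The ranges of EtOH_ATGLi and EtOH_CON overlapped for all 63 members, where 0.0238% of all genes separated in the lower direction and 0.00794% in the higher.

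This absence of calls depended on the test. DESeq2 called 9 members lower and limma-voom 10, and each called 0.175% of all genes lower. With all counts halved and rounded, edgeR called 7 of 57 tested members, where it called 0.135% of all genes lower. With the fit limited to these groups it called 9 of 60, where it called 0.252% of all genes lower. Col15a1, Col1a1, Col1a2, Col3a1, Col5a2, Col6a2 and Serpinh1 were called in all 4 of these alternatives, and 11 members in at least 1. Outside the members, Sparc was the gene that edgeR called lower, with 169.8 to 276 CPM (median 232) in EtOH_ATGLi and 225 to 439.9 CPM (median 358) in EtOH_CON (-0.65 ± 0.10, adjusted p = 3.29e-04). Fkbp5 was higher in EtOH_ATGLi than in EtOH_CON (0.78 ± 0.15, adjusted p = 0.0219).

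Under corticosterone, atglistatin went with no called member. In Cort_ATGLi against Cort_CON edgeR called 0 of 63, as did DESeq2 and limma-voom, where edgeR called 0.929% of all genes lower and 0.667% higher. At an unadjusted p under 0.05, 4 members were lower (Col1a2, Col3a1, Col6a6 and Adamtsl2) and 1 higher (Mmp11), against 6.24% and 6.15% of all genes. Col3a1 had 4.98 to 18.02 CPM (median 8.24) in Cort_ATGLi and 6.95 to 33.5 CPM (median 13.3) in Cort_CON (-0.60 ± 0.20, adjusted p = 0.136). Col1a2 differed by -0.49 ± 0.17 and Col1a1 by -0.41 ± 0.22, with overlapping groups. The median over members was -0.09, against 0.0011 for all genes. All Cort_ATGLi mice were labelled nondiabetic and 9 of 14 Cort_CON mice diabetic, so diet and disease label are mixed in this comparison. Other settings, among them only nondiabetic Cort_CON mice, gave -0.94 to -0.55 for Col3a1. They gave -0.72 to -0.41 for Col1a2 and -0.72 to -0.33 for Col1a1, and called 0 members. With 1 library left out the ranges were narrower, at -0.69 to -0.45, -0.53 to -0.41 and -0.49 to -0.31 in the same order. In that order the genes averaged 19.1, 44.8 and 23.9 CPM in nondiabetic Cort_CON mice, and 12.9, 34.4 and 16.7 CPM in diabetic ones.

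**Figure D5:**
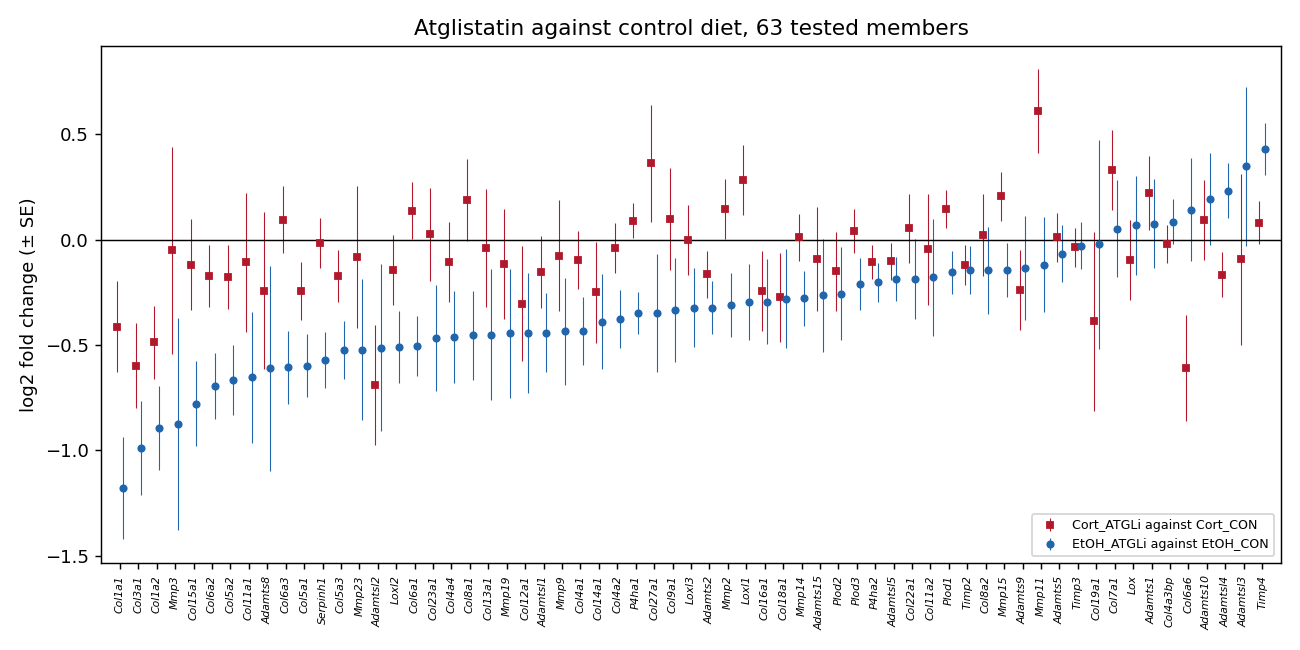
Log2 fold change, with SE, of the 63 tested members for atglistatin against control food, under corticosterone (red squares, Cort_ATGLi against Cort_CON) and under vehicle (blue circles, EtOH_ATGLi against EtOH_CON), ordered by the vehicle value. No member passed an adjusted p of 0.05 in edgeR; most vehicle values lie below 0, the lowest being Col1a1 at -1.18.

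Diabetes labels and insulin within the corticosterone groups were examined last. Between the 9 diabetic and 5 nondiabetic Cort_CON mice, edgeR called 0 of 67 tested members and 0 of 13084 genes, as did DESeq2 and limma-voom. At an unadjusted p under 0.05, Col12a1 was higher in diabetic mice and Col3a1 and Adamtsl1 were lower (2.36% and 2.54% of all genes). Col3a1 had 6.95 to 21.01 CPM (median 12.4) in diabetic and 11.8 to 33.5 CPM (median 17.6) in nondiabetic mice, a log2 fold change of -0.57 ± 0.28 (adjusted p = 0.983). Col12a1 had 0.549 to 1.69 CPM (median 0.768) in diabetic and 0.163 to 0.748 CPM (median 0.337) in nondiabetic mice (1.15 ± 0.41, adjusted p = 0.872). The groups overlapped for both genes.

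Within Cort_ATGLi, labelled insulin ran from 2.19 to 35.95 (no unit is given). The slope on log2 insulin passed for 0 of 62 tested members in edgeR, where 0.0799% of all genes had a negative slope and 0.024% a positive slope that passed. At an unadjusted p under 0.05, 10 members had a negative slope and 2 a positive one (5.83% and 3.52% of all genes). The smallest p-values were those of Adamts1 and Loxl1, with log2 changes of -0.26 ± 0.06 and -0.29 ± 0.07 per doubling of insulin (adjusted p = 0.105 and 0.108). Replicate 41, which had the lowest insulin, also had the highest level of both genes. Adamts1 was at 71.9 CPM there, against a median of 27.4 CPM, and Loxl1 at 15.8 CPM, against a median of 5.95 CPM. Without that library the slopes were -0.05 ± 0.07 for Adamts1 and -0.07 ± 0.09 for Loxl1 (adjusted p = 0.9997 for both).

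Collagen partners outside the rule were described from lists of known genes, which share no gene with the members. Beside the counts of these and later lists stand the shares of all tested genes. In Cort_CON against EtOH_CON 19.5% fell and 18.9% rose. In Cort_ATGLi against EtOH_ATGLi 15% fell and 15% rose. Of 29 proteoglycans and fibril partners, 26 fell and 0 rose in Cort_CON against EtOH_CON, and 25 fell and 0 rose in Cort_ATGLi against EtOH_ATGLi, with median log2 fold changes of -0.95 and -0.75. Dcn, the small proteoglycan decorin that binds collagen fibrils, had 418 to 821 CPM (median 504) in Cort_CON and 560.0 to 957 CPM (median 817) in EtOH_CON (-0.57 ± 0.09). Of 10 tested collagen receptor genes, 8 fell in Cort_CON and 7 in Cort_ATGLi, each against its vehicle group, and 0 rose. Ddr2, a receptor kinase that binds fibrillar collagen, had 6.77 to 15.7 CPM (median 10.96) in Cort_CON against 12.3 to 33.01 CPM (median 26.04) in EtOH_CON (-1.23 ± 0.13), while Itgb1, the β1 integrin subunit, did not pass (-0.05 ± 0.09).

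Folding and processing genes outside the rule were mixed, with 14 of 24 lower and 1 higher in Cort_CON, and 11 lower and 3 higher in Cort_ATGLi, each against its vehicle group. The chaperone gene Hspa5 did not pass in Cort_CON (0.16 ± 0.09) and rose in Cort_ATGLi (0.27 ± 0.10, adjusted p = 0.0249). Of 15 other turnover genes, 6 fell and 3 rose in Cort_CON, and 3 fell and 4 rose in Cort_ATGLi. The 3 that rose in Cort_CON and the 3 that fell in Cort_ATGLi were near the shares of all genes (18.9% and 15%). Among 21 genes of TGF-beta signalling, a known inducer of collagen genes, 8 fell and 6 rose in Cort_CON, and 8 fell and 8 rose in Cort_ATGLi. Smad3, a signal transducer of that pathway, had 18.99 to 56.2 CPM (median 31.9) in Cort_CON against 64.2 to 92.9 CPM (median 76.1) in EtOH_CON (-1.19 ± 0.13). Smad4, the common partner, rose (0.55 ± 0.08).

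Most listed markers of cells that make collagen fell under corticosterone, but such falls were not confined to these cells. In Cort_CON against EtOH_CON, 8 of 12 endothelial, 7 of 12 smooth muscle and pericyte, and 6 of 11 macrophage markers also fell. In Cort_ATGLi against EtOH_ATGLi these counts were 6, 3 and 5. Of 15 tested fibroblast and fibro-adipogenic progenitor markers, 10 fell and 0 rose in Cort_CON, and 9 fell and 0 rose in Cort_ATGLi, with medians of -0.58 and -0.48. Their summed level ran from 568.4 to 757 CPM in Cort_ATGLi and 707 to 1165 CPM in EtOH_ATGLi, and from 484 to 1002 CPM in Cort_CON and 852 to 1352 CPM in EtOH_CON. Of 10 tendon cell markers, 7 fell and 1 rose in Cort_CON, and 8 fell and 1 rose in Cort_ATGLi. Their sum was 105 to 174 CPM in Cort_ATGLi and 247 to 578 CPM in EtOH_ATGLi, and 107 to 256 CPM in Cort_CON and 279 to 556 CPM in EtOH_CON. Neither tendon sum overlapped between corticosterone and vehicle. Smoc2, a fibroblast marker, fell by 1.15 and 0.91 on the diets without and with atglistatin, and Fmod, a tendon marker that is also among the fibril partners, fell by 2.02 and 2.06. The genes with the highest mean CPM, Gsn in the fibroblast list and Thbs4 in the tendon list, are not given here, so Smoc2 and Fmod do not stand for their lists. The part of these cell types in the collagen result was not tested.

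Other cell types were listed for the same reason. In Cort_CON against EtOH_CON the counts of lower and higher markers were 8 and 1 of 12 for endothelium, 7 and 1 of 12 for smooth muscle and pericytes, 6 and 1 of 11 for macrophages, 3 and 0 of 9 for Schwann cells, 2 and 1 of 8 for adipocytes, 2 and 3 of 7 for satellite cells, and 2 and 6 of 13 for muscle fibres. In Cort_ATGLi against EtOH_ATGLi they were 6 and 1, 3 and 1, 5 and 1, 0 and 0, 1 and 2, 2 and 3, and 2 and 5 in the same order. Of all genes, 19.5% fell and 18.9% rose in Cort_CON, and 15% fell and 15% rose in Cort_ATGLi. In lists this short, counts such as 2 of 8 or 1 of 8 lie near those shares. Summed levels did not always follow these counts. The adipocyte sum ran from 648 to 2414 CPM in Cort_ATGLi and 2509 to 3706 CPM in EtOH_ATGLi, without overlap, and from 484 to 4247 CPM in Cort_CON and 3019 to 4416 CPM in EtOH_CON. Most of it was Car3, a carbonic anhydrase that muscle also expresses (medians 1226 CPM in Cort_CON and 3201 CPM in EtOH_CON), while the adipocyte hormone gene Adipoq did not pass the test on either diet. The smooth muscle and pericyte sum ran from 2760 to 5543 CPM in Cort_ATGLi and 1984 to 2861 CPM in EtOH_ATGLi, and from 3421 to 6097 CPM in Cort_CON and 1542 to 2898 CPM in EtOH_CON, the last pair without overlap. Most of it was Des, which encodes desmin, a protein that muscle fibres also hold (medians 3982 CPM in Cort_CON and 1958 CPM in EtOH_CON). The satellite cell sum ran from 54.5 to 94.5 CPM in Cort_ATGLi and 30.4 to 51.6 CPM in EtOH_ATGLi, without overlap, and from 47.6 to 77.8 CPM in Cort_CON and 38.3 to 48.001 CPM in EtOH_CON. The endothelial, macrophage, Schwann cell and muscle fibre sums overlapped between corticosterone and vehicle on both diets. The part of these cell types in the results was not tested either. For the neutrophil list 3 of 8 genes were measured, at a summed 0.163 to 9.93 CPM across the libraries, and 1 of 2 tested genes fell in Cort_CON and 0 in Cort_ATGLi. For the cartilage and bone list 4 of 12 genes were measured, and 2 of 3 tested genes fell and 1 rose on each diet. Of 10 glucocorticoid receptor targets, 9 rose and 0 fell on each diet.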

How the data were processed

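The deposited table held raw read counts per gene for 48 libraries, per the file headers, and its columns were matched to the labels by name. The libraries were made with Lexogen QuantSeq, which reads the 3′ ends of transcripts, from total RNA, per the labels' protocols. GRCm38, R 3.6.1 and DESeq2 1.24.0 are named in the submitters' processing notes, while the aligner, counter, strand setting and annotation were not given in the sources used. In 47 of 48 libraries all deposited counts were even, while 49.6% of the counts of EtOH_ATGLi replicate 13 were odd, so halved counts were run as an alternative.

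Genes were filtered with filterByExpr (minimum count 10, minimum total 15), which kept 12592 of 14125. Counts were scaled by TMM and tested with edgeR 4.0.16's robust quasi-likelihood test in R 4.3.3 over the 4 groups, with Benjamini-Hochberg adjustment over all tested genes and a threshold of 0.05. The diabetic comparison used a fit of 5 groups (13084 genes), and the insulin slope used the 14 Cort_ATGLi libraries (12517 genes). SE was the size of the log2 fold change divided by the square root of F. DESeq2 1.42.0 and limma 3.58.1 were alternatives, with another scaling (RLE), no filter, only the groups compared, only nondiabetic Cort_CON, a replicate block, and libraries left out. The edgeR script was tested on simulated data with 200 changed genes. Ratios were tested with SciPy 1.17.1 by permutation, and their alternatives were chosen after seeing the data.

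No 2 libraries of a group agreed within counting noise (272 pairs, lowest chi-square per degree of freedom 7.59). Coordinates are those of GENCODE (GRCm38) and promoter letters those of RefSeq (GRCm38.p6). The members, gene lists and ratios were chosen with earlier results of these data known. Named members were the 3 with the highest mean CPM in each class, the 3 largest called rises and falls in each comparison among members averaging 5 CPM or more, and up to 8 called members elsewhere. Of each list the 2 genes with the highest mean CPM could be named, and Fkbp5 as the check of the treatment. Values of Adipoq and of other members, including Serpinh1, Loxl1, Loxl2, Col5a1, Col14a1, Mmp9 and Adamtsl2, were chosen for naming after their values were seen.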

Additional observations from a re-analysis of the deposited data

Results flagged for a closer look

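In 10 of 60 checks of a named member or ratio in a vehicle group of 10 libraries, 1 library stood apart from the others by Dixon's 95% criterion, which chance meets in about 1 of 20 groups. EtOH_CON replicate 1 was high for Col15a1, at 30.8 CPM with the next library at 23.3 CPM. It was also high for the log2 ratio of Col1a1 to Col1a2, at 0.96 with the next at -0.06, and for that of Mmp2 to Timp2, at -2.002 with the next at -2.55. EtOH_CON replicate 10 was high for Col6a1 at 26.0 CPM (next 17.1), for Timp2 at 269.6 CPM (next 195) and for Timp3 at 198 CPM (next 145). EtOH_CON replicate 11 was low for Col22a1, at 2.59 CPM with the next library at 5.94 CPM. EtOH_ATGLi replicate 12 was high for Col15a1 at 20.0 CPM (next 14.6) and for Col6a3 at 59.4 CPM (next 41.01). EtOH_ATGLi replicate 13, the library whose counts were not all even, was high for Mmp2 at 36.8 CPM (next 24.5).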

How the results depend on the processing

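The corticosterone counts kept their size: members lower in Cort_CON against EtOH_CON numbered 44, with 36 (only nondiabetic Cort_CON mice) to 45 across the other settings and 41 to 45 when 1 library was left out, and members higher numbered 5 to 7. For Cort_ATGLi against EtOH_ATGLi the lower count of 35 ran from 31 to 36, or 33 to 36 with 1 library left out, and the higher count of 7 from 5 to 8, or 6 to 8. The vehicle comparison of atglistatin moved: edgeR's 0 lower members became 1 with RLE scaling, 9 with DESeq2, 10 with limma-voom, 7 with halved counts and 9 with only the groups compared, and 0 to 6 with 1 library left out, the 6 without EtOH_ATGLi replicate 12. The cause was not tested. The insulin slope gave 0 to 1 with 1 library left out, Adamts1 being called without Cort_ATGLi replicate 40. Leaving out EtOH_CON replicate 1 and Cort_ATGLi replicate 41 together gave 44 and 36 lower members under corticosterone and 0 for atglistatin under vehicle. No called result changed sign. For named genes and ratios, 1090 values under other settings stayed on their side of the threshold, 25 gained a call and 10 lost it; with 1 library left out the numbers were 6438, 32 and 10. Signs changed in 12 and 62 of these values, over 15 results that were not called and were at most 0.14 in size.

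Some replicate numbers are shared between groups, but the 6 same-numbered pairs had correlations of their deviations of only -0.06 to 0.15, so the numbers were not taken to pair animals. With the number as a replicate block, 40 members were lower and 6 higher in Cort_CON, 31 lower and 6 higher in Cort_ATGLi, and 0 were called for atglistatin under vehicle; the calls lost were those of Timp3, Col4a1, Col13a1, Mmp3 and Col4a3bp, and on atglistatin food those of Timp3, Adamts5, Adamts8, Col8a1 and Col18a1. Members under about 1 CPM rest on few counts per library, and the size of difference that could be detected at such levels was not tested.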

Other observations

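Replicate 41 of Cort_ATGLi, whose insulin of 2.19 was the lowest of that group, had the highest level in the group of several members. Lox was at 48.2 CPM with the next library at 21.0 CPM, Timp1 (not tested) at 6.07 CPM with the next at 0.541 CPM, Mmp19 at 7.54 CPM with the next at 2.44 CPM, Col4a1 at 66.3 CPM with the next at 47.3 CPM, and Plod1 at 19.1 CPM with the next at 13.2 CPM. These genes were picked after their values were seen. One Cort_CON mouse labelled nondiabetic, replicate 36, carried a glucose value of 242 (no unit is given), and the other 4 nondiabetic Cort_CON mice carried 131 to 145.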
